A study of Mus musculus with 30 samples.

Results

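The lungs of mice that overexpress a membrane-restricted form of the cytokine TL1A were compared with WT lungs by mRNA sequencing. The members are 10 of the study's 30 libraries, 5 labelled Mem and 5 labelled WT, all from the lung and found by the column names of the lung count table. Mem mice overexpress TL1A Delta 69-93, which the labels call membrane restricted, and a further 4 lung libraries, labelled Mem+Sol, come from mice that overexpress both the membrane-bound and the soluble form. All mice had the C57bl/6 background, their age is not given in the sources used here, and the tissue was the post-caval lobe of the lung. The genotype label names the CD2 promoter, a promoter active in T cells, only for the WT libraries, for which it is the one thing said beside WT; the Mem and Mem+Sol labels name no promoter. Mem libraries 1 and 2 and WT libraries 1 and 2 were sequenced in batch 2, and Mem and WT libraries 3, 4 and 5 in batch 1. Mem 1 and 3 and WT 1, 3 and 4 were male, and the other Mem and WT libraries female. Whether each library is 1 animal is not stated in the labels, and the p-values therefore speak of the spread among these libraries, which may be technical.

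TL1A, encoded by Tnfsf15, is a member of the tumour necrosis factor family. It is made as a membrane protein, can be released by cleavage, and costimulates T cells and innate lymphoid cells through its receptor DR3, encoded by Tnfrsf25. Signals through DR3 are known to promote type 2 immunity, in which the cytokines IL-4, IL-5 and IL-13 act on airway epithelium, macrophages and eosinophils, and to expand regulatory T cells. In the lung, type 2 immunity is known for mucus production by goblet cells, macrophages that express Retnla, Arg1 and chitinase-like proteins, and eosinophil recruitment.

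The 14 lung libraries held 22259203 to 39089383 counts each. Of 24062 gene symbols, 20842 had a count and 15885 were tested in a model with genotype, sex and batch. Lung genes were abundant in both groups, as the tissue label says: the summed level of 13 alveolar type 2 cell genes lay between 25200 and 30400 CPM (counts per 1000000 of the TMM-normalised library size) in the WT and between 33800 and 41200 CPM in the Mem libraries. Genes of heart muscle (304 to 500 CPM in WT, 215 to 432 in Mem), mesothelium (327 to 534 and 354 to 498) and fat (73.5 to 197 and 82.7 to 165) were present in both groups with overlapping ranges, and no tested member of these 3 lists was called. Of 6 tested skeletal muscle genes 1 was called higher, and 0 without WT 2, 3 or 4 or Mem 2 or 3, with summed levels of 9.14 to 15.6 CPM in WT and 9.9 to 15.1 CPM in Mem. The thymus genes Foxn1 and Ptcra, with 0 and 3 counts over the 5 WT libraries and 0 and 3 over the 5 Mem libraries, were at or near 0. In bulk tissue, fewer cells of a type and less RNA per cell cannot be told apart.

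Tnfsf15 was higher in every Mem library, and the gene of its receptor moved the same way. Tnfsf15 stood at 8.56, 8.49, 9.92, 6.92 and 4.49 CPM in WT 1 to 5 and at 23, 23.7, 20.2, 20.8 and 24.5 CPM in Mem 1 to 5, a rise of 1.57 ± 0.18 on the log2 scale (± SE, n = 5 and 5, adjusted p = 0.000242). The groups did not overlap, and the Mem libraries lay within a narrow band. Tnfrsf25 stood at 4.84, 5.85, 5.04, 4.64 and 4.98 CPM in WT and at 7.43, 7.59, 7.18, 9.3 and 8.48 CPM in Mem, a rise of 0.63 ± 0.10 (adjusted p = 0.00198), again without overlap. On the mouse genome GRCm38 both genes lie on chromosome 4, Tnfsf15 at 63727084 to 63745113 on the minus strand and Tnfrsf25 at 152115934 to 152120119 on the plus strand. A count table by gene symbol does not separate the transgene's transcript from the endogenous Tnfsf15 transcript.

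**Figure D1:**
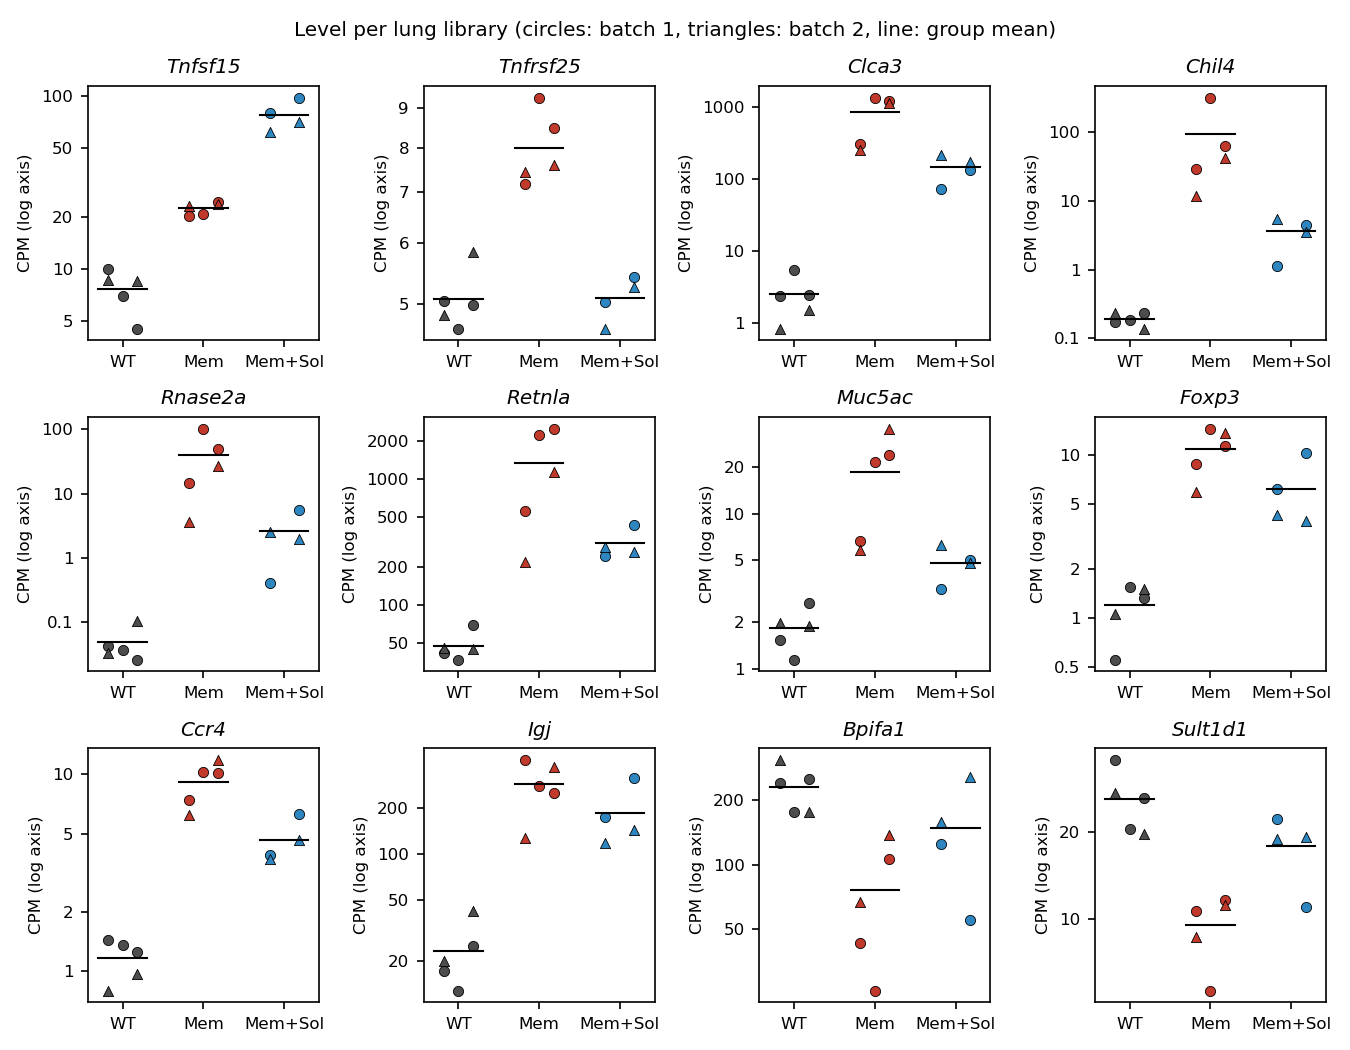
Levels of 12 genes in the 5 WT, 5 Mem and 4 Mem+Sol lung libraries, in CPM on a log axis; each point is 1 library, circles are sequencing batch 1, triangles batch 2, and the line is the group mean. Tnfsf15 lay at 20.2 to 24.5 CPM in Mem and at 61.5 to 97.9 CPM in Mem+Sol, while Clca3 reached 1360 CPM in Mem and 214 CPM in Mem+Sol.

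Genes of the noncanonical NF-kB branch and other signalling genes were among those that rose. Nfkb2, which encodes the precursor of the p52 subunit, went from 62.9 ± 5.17 CPM in WT to 86.6 ± 11.2 CPM in Mem (SD, n = 5 each; log2 0.44 ± 0.08, adjusted p = 0.0028), and its partner Relb from 32.2 ± 5.63 to 45.5 ± 9.38 CPM (log2 0.50 ± 0.09, adjusted p = 0.00445). Both overlapped between the groups. In Mem+Sol, Nfkb2 was at 65.5 ± 3.41 CPM and Relb at 30.8 ± 4.11 CPM. Both were called higher in Mem than in Mem+Sol (adjusted p = 0.0284 and 0.026). Whether these rises follow from signals through DR3 was not tested. Of the 14 tested genes of the list of TL1A, its receptor and signalling adaptors, 7 were called higher and 0 lower, with a median log2 fold change of 0.25 (0.35 in batch 1 and 0.11 in batch 2). Over all tested genes 6.41% were called higher, 3.05% lower and 9.46% in either direction, and the median was -0.02. Without Mem 3 the list had 4 called higher. Also called higher were Tnfaip3 (log2 0.49 ± 0.10, adjusted p = 0.00951), Birc3 (0.33 ± 0.09, adjusted p = 0.0337) and Traf2 (0.23 ± 0.07, adjusted p = 0.0459). Tnfaip3 was not called without Mem 3 (adjusted p = 0.0526). Birc3 and Traf2 were not called without WT 5 (0.0815 and 0.182) or Mem 3 (0.0811 and 0.132), among other libraries. The adaptor genes Tradd (log2 0.21) and Ripk1 (0.07) and the classical subunit Nfkb1 (0.09) were not called.

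Over the whole transcriptome 1018 genes were called higher and 485 lower in Mem lungs at an adjusted p under 0.05. The rises were the larger: 337 were at least 2-fold and 83 at least 4-fold, against 13 falls of at least 2-fold and 0 of at least 4-fold. All 5 Mem libraries lay above all 5 WT libraries for 517 of the genes called higher and below them for 104 of the genes called lower, and over all tested genes this held for 3.81% and 1.2%. The median rise was 0.74 on the log2 scale (0.84 in batch 1 and 0.52 in batch 2), and 983 of the 983 rises tested in both batches had the same sign in each. For the falls the median was -0.38 (-0.5 and -0.22), with the same sign in 480 of 480. The genes were called on both batches together, so a shared sign is no separate support. The 3 Mem and 3 WT libraries of batch 1 alone gave 880 genes called higher and 639 lower, and the 2 and 2 libraries of batch 2 alone gave 205 and 61. The number of calls depended on single libraries: 627 genes were called without WT 5, 658 without Mem 3, 956 without WT 3 and 985 without Mem 2. Genes called lower ranged from 94 without Mem 3 to 829 without Mem 1, and genes called higher from 523 without WT 5 to 1177 at most.

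**Figure D2:**
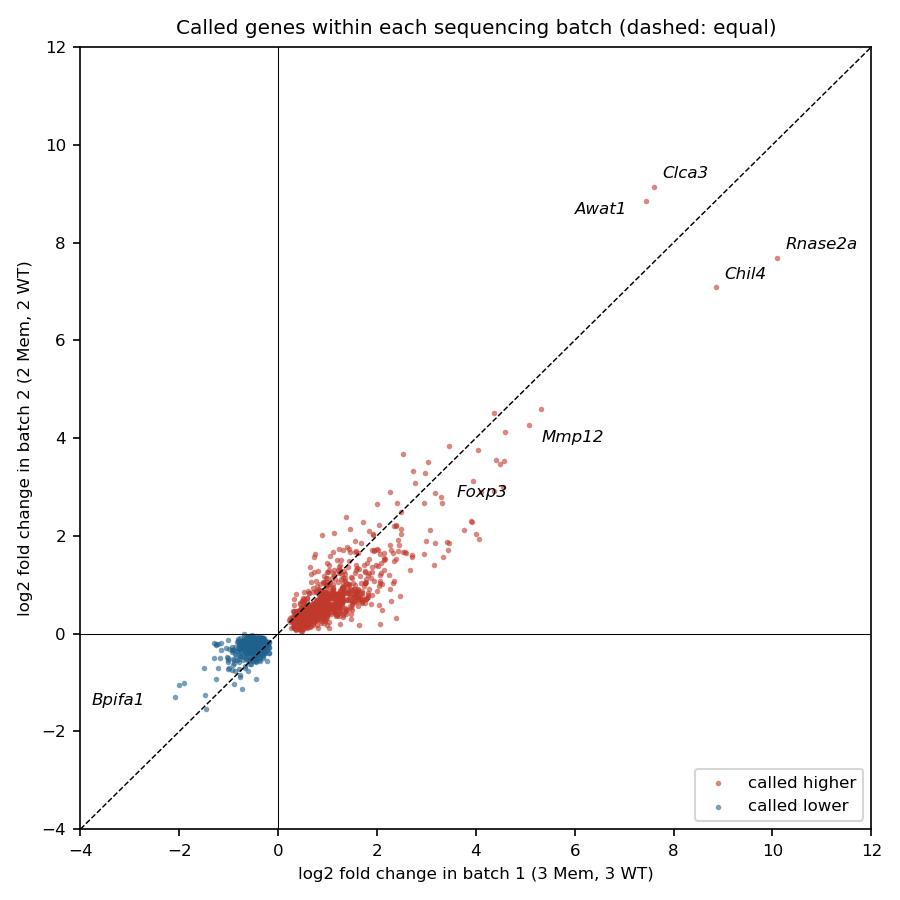
Log2 fold change of Mem over WT in batch 2 (2 Mem and 2 WT libraries, vertical) against batch 1 (3 and 3, horizontal) for the genes called in the fit of all libraries; red points were called higher, blue points lower. The rises had a median of 0.84 in batch 1 and 0.52 in batch 2, and Clca3 (7.6 and 9.14) and Chil4 (8.86 and 7.09) were among the largest in both. Awat1, which is marked, was chosen after its values were seen.

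Within the Mem group the size of the response differed from library to library. Mem 1 was the Mem library nearest to WT for 746 of the 1018 genes called higher and the farthest for 1, while Mem 4 was the farthest for 551 and the nearest for 21. Among the 485 falls Mem 1 was the nearest to WT for 315 and Mem 3 the farthest for 197. Tnfsf15 itself did not follow this order, at 23 CPM in Mem 1 and 20.8 CPM in Mem 4. Mem 1 was a male library of batch 2 and Mem 4 a female library of batch 1, and the part of sex and batch in this order was not tested.

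Responders to IL-4 and IL-13 held several of the largest rises in the Mem lung. Of 19 list members, all tested, 16 were called higher and 0 lower, with a median log2 fold change of 2.26 (2.7 in batch 1 and 1.71 in batch 2), and 15 did not overlap between the groups. This list, like the others, was chosen with earlier results of these data known, so its count and median are description only. Clca3, a secreted goblet cell protein now named Clca1, stood at 0.823, 1.51, 2.33, 5.41 and 2.4 CPM in WT and at 253, 1150, 305, 1360 and 1210 CPM in Mem (log2 8.14 ± 0.71, adjusted p = 0.000123). The lowest Mem library was far above the highest WT library. Slc26a4, the epithelial anion exchanger pendrin, rose from 6.33 ± 2.25 to 96.8 ± 48.4 CPM (log2 3.57 ± 0.41, adjusted p = 0.00027). Among the less abundant members, Foxa3, a transcription factor of goblet cells, rose by 1.92 ± 0.32 (adjusted p = 0.00212) and Tff2, a trefoil peptide, by 1.88 ± 0.29 (adjusted p = 0.00174).

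The macrophage-linked members of the same list rose with them. Retnla, which encodes the secreted protein RELM-alpha, stood at 46.3, 45.0, 42.1, 37.0 and 69.3 CPM in WT and at 222, 1140, 558, 2240 and 2510 CPM in Mem (log2 4.30 ± 0.45, adjusted p = 0.000182). Even the lowest Mem library, Mem 1, was above the highest WT library. Chil4, a chitinase-like protein, stood at 0.23, 0.137, 0.17, 0.184 and 0.23 CPM in WT and at 11.7, 42.3, 29.6, 321 and 64.0 CPM in Mem (log2 8.31 ± 1.04, adjusted p = 0.000683, and 7.42 without Mem 4). Its 5 WT libraries held 29 counts in all and the 5 Mem libraries 11563, a ratio of depth-scaled counts of 412 with a 95% counting interval of 287 to 616, so the fold change of Chil4 rests on very few WT reads. Chil3, its close paralog, stood at 442, 329, 213, 352 and 428 CPM in WT and at 665, 2360, 2770, 6220 and 3730 CPM in Mem (log2 2.81 ± 0.49, adjusted p = 0.00356). Arg1, the enzyme arginase-1, stood at 1.68, 2.43, 1.91, 2.14 and 2.22 CPM in WT and at 7.58, 20.7, 8.3, 50.9 and 9.96 CPM in Mem (log2 2.87 ± 0.45, adjusted p = 0.00195). For all 4 genes the groups did not overlap, and Mem 1 was the lowest Mem library. Reads of Chil3 and Chil4 may be shared between the paralogs, which the counts do not resolve.

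Chemokines of type 2 immunity made up 5 of the list's 16 rises. Ccl8, a ligand of Ccr8 in the mouse, stood at 1.55, 1.3, 1.1, 0.81 and 0.817 CPM in WT and at 6.73, 18.4, 17.1, 30.2 and 19.8 CPM in Mem (log2 3.89 ± 0.33, adjusted p = 7.73e-05). Ccl17, a ligand of Ccr4, stood at 3.79, 7.19, 2.63, 2.14 and 6.97 CPM in WT and at 11.1, 37.7, 39.7, 101 and 109 CPM in Mem (log2 3.28 ± 0.44, adjusted p = 0.000799). Neither overlapped, and the other Ccr4 ligand of the list, Ccl22, rose by 2.26 ± 0.26 (adjusted p = 0.000269). Of the 2 eotaxins, Ccl11 rose by 1.32 ± 0.23 (adjusted p = 0.00294). Ccl24 stood at 0.56, 0.787, 0.72, 0.442 and 0.434 CPM in WT and at 0.784, 5.02, 1.12, 20.8 and 13.1 CPM in Mem, so that the female Mem libraries 2, 4 and 5 were high and the male Mem 1 lay within the WT range. Its rise of 2.88 ± 0.67 (adjusted p = 0.0179) was not called without WT 2 (adjusted p = 0.0656) or without WT 5 (2.14, adjusted p = 0.0892). The 3 members not called were Alox15 (log2 1.0, adjusted p = 0.207), Postn (-0.21, adjusted p = 0.175) and Cish (0.24, adjusted p = 0.0854).

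IL-4 and IL-13 act through the transcription factor STAT6, whose sites take the form TTCNNNNGAA, with the related TTCNNNGAA bound by several STAT proteins. To show regulatory sequence of list members, the 250 bases before the RefSeq start were taken from RefSeq (GRCm38.p6) for the 13 that had an entry. These 13 include Postn and Cish, which were not called. Both motifs, which read the same on both strands, were searched. A match was held by 5 members, printed here with the match in capitals; each is printed 5′ to 3′ on the strand that the RefSeq table gives for the gene. The bases that follow the start were found in a GENCODE transcript of the gene for each of these members except Retnla. The windows are chr16:48842359-48842608 on the plus strand for Retnla, chr8:94810203-94810452 on the plus strand for Ccl17, chr3:106167565-106167814 on the minus strand for Chil3, chr3:106219480-106219729 on the minus strand for Chil4 and chr19:29410669-29410918 on the plus strand for Pdcd1lg2. The RefSeq start lies inside the GENCODE gene for Retnla, which begins at 48842551, and for Chil4, which ends at 106219507 on the minus strand, so those windows take in annotated transcript as well as sequence before it.
Retnla: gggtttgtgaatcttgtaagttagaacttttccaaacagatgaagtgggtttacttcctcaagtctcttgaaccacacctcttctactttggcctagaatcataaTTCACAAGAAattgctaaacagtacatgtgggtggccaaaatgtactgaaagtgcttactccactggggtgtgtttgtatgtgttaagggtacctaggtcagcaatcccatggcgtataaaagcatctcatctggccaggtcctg
Ccl17: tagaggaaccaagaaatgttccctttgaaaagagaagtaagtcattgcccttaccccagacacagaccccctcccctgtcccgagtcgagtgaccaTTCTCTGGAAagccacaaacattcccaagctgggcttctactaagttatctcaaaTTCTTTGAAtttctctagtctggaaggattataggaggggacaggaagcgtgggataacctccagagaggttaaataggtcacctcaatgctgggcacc
Chil3: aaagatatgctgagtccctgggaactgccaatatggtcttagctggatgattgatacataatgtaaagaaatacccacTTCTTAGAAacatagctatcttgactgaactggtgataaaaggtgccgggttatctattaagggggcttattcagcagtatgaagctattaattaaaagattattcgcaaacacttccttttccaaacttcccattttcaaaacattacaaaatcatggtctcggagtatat
Chil4: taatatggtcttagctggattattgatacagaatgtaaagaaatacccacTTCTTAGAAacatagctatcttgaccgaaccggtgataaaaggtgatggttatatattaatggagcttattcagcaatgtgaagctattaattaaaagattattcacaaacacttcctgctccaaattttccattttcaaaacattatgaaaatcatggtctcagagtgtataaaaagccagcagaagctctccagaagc
Pdcd1lg2: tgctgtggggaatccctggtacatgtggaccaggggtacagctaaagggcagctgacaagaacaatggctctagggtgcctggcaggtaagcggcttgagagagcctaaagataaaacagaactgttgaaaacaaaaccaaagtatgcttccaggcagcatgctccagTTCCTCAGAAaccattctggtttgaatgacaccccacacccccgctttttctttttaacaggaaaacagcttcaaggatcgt
Retnla and Pdcd1lg2 held TTCNNNNGAA, the paralogs Chil3 and Chil4 held the same 9 letters of TTCNNNGAA, and Ccl17 held a match to each form, at separate places. TTCNNNNGAA was present in 3 of the 13 members, in 6.85% of the 744 genes called higher with an entry, in 5.69% of the 11785 tested genes with an entry and in 5.85% of all 32851 windows. TTCNNNGAA was present in 3 of the 13 members and in 9.01%, 7.48% and 7.02% of those sets. A match describes the letters of these windows only, and 250 bases hold a small part of a gene's regulatory sequence. Pdcd1lg2, which encodes the PD-1 ligand PD-L2, rose by 1.89 ± 0.39 (adjusted p = 0.00857).

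Mucous cell genes rose together. Of 10 tested goblet and mucous cell genes, 7 were called higher and 0 lower, with a median of 1.75 (1.4 in batch 1 and 1.83 in batch 2). The count was 5 without WT 2, WT 3, WT 5, Mem 2 or Mem 5, and 3 in batch 2 alone. Agr2 (2.29 ± 0.59, adjusted p = 0.0283) and Spdef (0.76 ± 0.21, adjusted p = 0.0389) were among the 7. Both lost their call without WT 2 (0.0778 and 0.114) or WT 5 (0.0893 and 0.12), among other libraries. Muc5ac, the inducible gel-forming mucin of airway goblet cells, stood at 1.98, 1.88, 1.53, 1.14 and 2.66 CPM in WT and at 5.8, 35.5, 6.64, 21.5 and 23.8 CPM in Mem (log2 2.93 ± 0.35, adjusted p = 0.00027). The male Mem libraries 1 and 3 were the lowest, and both were above all WT libraries. Fcgbp, a mucus protein that binds mucins, stood at 4.35, 3.59, 5.42, 5.01 and 5.95 CPM in WT and at 25.5, 78.0, 28.1, 69.5 and 74.0 CPM in Mem (log2 3.32 ± 0.36, adjusted p = 0.000184), with the same order. The mucosal glycoprotein gene Gp2 rose by 3.01 ± 0.33 (adjusted p = 0.000184), the secreted Bpifb1 by 1.22 ± 0.27 (adjusted p = 0.0128) and the membrane mucin Muc1 by 0.45 ± 0.09 (adjusted p = 0.00913). Muc5b, the mucin of resting airways, was not called (0.76, adjusted p = 0.0829), and neither were Itln1 (2.3, adjusted p = 0.237) and Muc4 (0.18). Tff1, too rare to be tested, had 0 counts over the 5 WT libraries and 2, 3, 4, 9 and 5 counts in the Mem libraries. With the 0 taken as 3 counts and the Mem counts as they stand, the ratio of depth-scaled counts was 7.93.

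T cell genes, Cd4 among them, rose in part, and the CD8 coreceptor genes were not called. Of 17 T cell identity genes, 10 were called higher and 0 lower, with a median of 0.48 (0.59 in batch 1 and 0.28 in batch 2). For 4 of the 17, all Mem libraries lay above all WT libraries. The count called higher was 5 without Mem 3 and 6 without WT 2, WT 3, WT 5, Mem 2 or Mem 5. It was 0 in batch 2 alone. Cd4, the coreceptor of helper and regulatory T cells, stood at 10.7, 12, 8.69, 10 and 9.01 CPM in WT and at 17.6, 34.2, 19.0, 27.6 and 23.1 CPM in Mem (log2 1.18 ± 0.15, adjusted p = 0.000404), without overlap. The T cell surface receptors Cd5 (log2 1.12 ± 0.14, adjusted p = 0.000386) and Cd6 (1.12 ± 0.18, adjusted p = 0.00154) rose by a similar amount. The CD8 coreceptor genes Cd8a (-0.27, adjusted p = 0.207) and Cd8b1 (-0.29, adjusted p = 0.279) were not called, nor were the transcription factors Tcf7 (-0.2) and Lef1 (-0.32), which mark resting T cells.

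Most tested regulatory T cell genes were higher in the Mem lung. Of 13 tested members, 10 were called higher and 1 lower, with a median of 1.34 (1.43 in batch 1 and 1.16 in batch 2), and the counts without any 1 library ranged from 8 to 10 higher. Foxp3, the transcription factor that defines regulatory T cells, stood at 1.05, 1.51, 0.551, 1.55 and 1.33 CPM in WT and at 5.92, 13.6, 8.78, 14.5 and 11.4 CPM in Mem (log2 3.00 ± 0.25, adjusted p = 6.41e-05). The lowest Mem library was above the highest WT library. The inhibitory receptor Ctla4 rose from 1.63 ± 0.5 to 12.5 ± 4.8 CPM (log2 2.74 ± 0.33, adjusted p = 0.0003). Of the costimulatory receptors, Tnfrsf9 rose by 2.69 ± 0.30 (adjusted p = 0.000211) and Tnfrsf4 by 1.81 ± 0.20 (adjusted p = 0.000167). Il2ra, the high-affinity IL-2 receptor chain, rose by 1.45 ± 0.20 (adjusted p = 0.000725), the integrin Itgae by 1.34 ± 0.22 (adjusted p = 0.0023) and Ccr8 by 2.62 ± 0.34 (adjusted p = 0.000386). Lrrc32, a carrier of latent TGF-beta that endothelium and platelets also express, fell from 77.1 ± 9.95 to 57.9 ± 5.49 CPM (log2 -0.38, adjusted p = 0.0189) and was not called without Mem 3 (adjusted p = 0.081). The cytokine Il10, below the filter, had 9 counts over the WT and 37 over the Mem libraries, a ratio of 4.25 with a counting interval of 2.01 to 10.0.

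Activation genes followed, with 8 of 14 called higher, 0 lower and a median of 0.78. Icos, a costimulatory receptor, rose from 5.0 ± 0.978 to 16.1 ± 4.94 CPM (log2 1.54 ± 0.16, adjusted p = 0.00015). The inhibitory receptors Pdcd1 (2.26 ± 0.30, adjusted p = 0.000464) and Tigit (1.73 ± 0.31, adjusted p = 0.00315) rose without overlap between the groups, and the transcription factor Batf rose by 0.81 ± 0.14 (adjusted p = 0.00257) with overlap. Several of these genes are shared between activated conventional and regulatory T cells, which bulk counts do not separate.

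**Figure D3:**
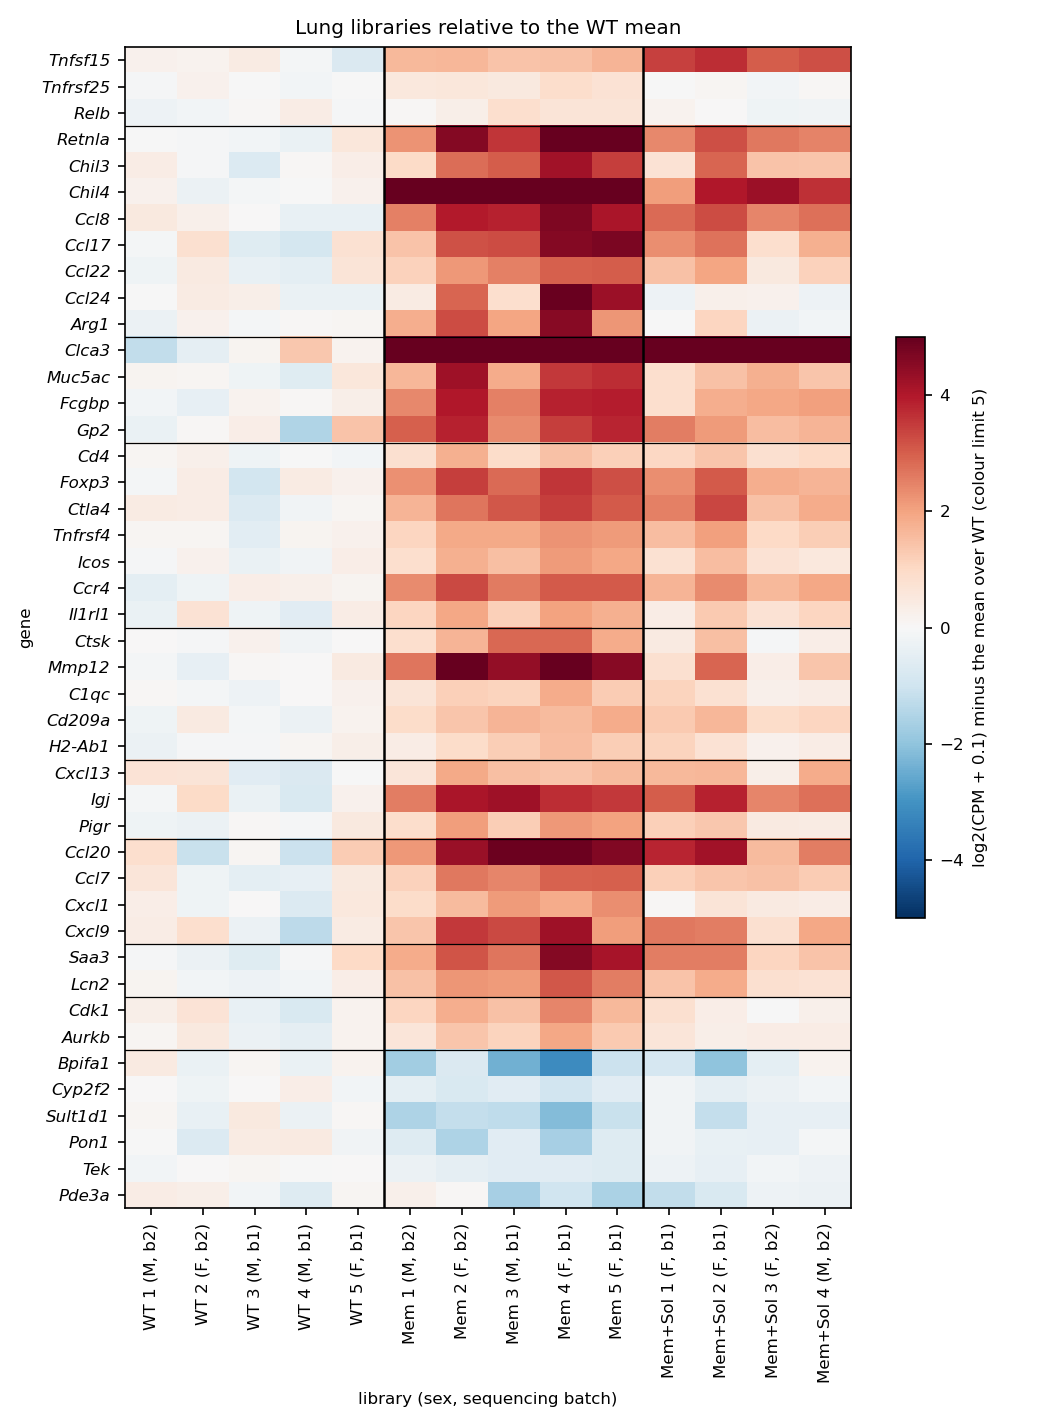
Expression of 44 genes in the 14 lung libraries as log2(CPM + 0.1) minus the WT mean, with the colour range ending at 5 in each direction and the sex and batch of each library marked. Of the 1018 genes called higher over all genes, 517 had all 5 Mem libraries above all 5 WT libraries, and Mem 1 was the Mem library nearest to WT for 746.

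Some receptors found on type 2 lymphocytes rose, while the cytokines Il13 and Il4 were near the limit of detection. Of 13 tested type 2 lymphocyte genes, 4 were called higher and 0 lower, with a median of 0.31. Ccr4, the chemokine receptor of type 2 helper and regulatory T cells, stood at 0.79, 0.958, 1.44, 1.36 and 1.25 CPM in WT and at 6.18, 11.9, 7.42, 10.3 and 10.2 CPM in Mem (log2 2.94 ± 0.22, adjusted p = 2.4e-05), without overlap. Il1rl1, which encodes the IL-33 receptor ST2, rose from 7.07 ± 2.81 to 21.1 ± 6.06 CPM (log2 1.48 ± 0.20, adjusted p = 0.000683), and Klrg1, found on effector and regulatory T cells and type 2 innate lymphoid cells, from 2.4 ± 0.488 to 7.57 ± 1.7 CPM (1.62 ± 0.18, adjusted p = 0.000184). Hpgds, a prostaglandin D synthase, rose by 0.89 ± 0.19 (adjusted p = 0.00995, and 0.0519 without Mem 3). The transcription factor Gata3 (0.31, adjusted p = 0.272), Il5 (-0.33, adjusted p = 0.579) and Areg (0.3) were not called. Il13 had 5 counts over the 5 WT and 20 over the 5 Mem libraries, a ratio of 4.13 with a counting interval of 1.51 to 14.1. Il4 had 30 and 28 counts, a ratio of 0.965 with an interval of 0.555 to 1.67. Counts this low leave the cytokines themselves barely measured.

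Of 8 tested alarmin and cytokine receptor genes, 2 were called higher and 0 lower, where 6.41% of all tested genes were called higher. Il33, the epithelial alarmin that binds ST2, stood at 145, 138, 113, 103 and 128 CPM in WT and at 159, 231, 197, 277 and 269 CPM in Mem (log2 0.75 ± 0.14, adjusted p = 0.0043). The lowest Mem library, again Mem 1, was just above the highest WT library. Csf2rb, the shared receptor chain of IL-3, IL-5 and GM-CSF, rose by 0.58 ± 0.12 (adjusted p = 0.00856). Il4ra (0.13) and the alarmin Tslp (-0.03) were not called.

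Eosinophil-linked genes moved unequally. Of 8 tested members, 3 were called higher and 0 lower, where 6.41% of all tested genes were called higher and 3.05% lower. Rnase2a, a secreted ribonuclease of the eosinophil-associated family, had 1, 3, 1, 1 and 1 counts in WT 1 to 5 and 125, 746, 488, 2306 and 1381 counts in Mem 1 to 5, a ratio of depth-scaled counts of 745 with a counting interval of 361 to 1850. Its fitted rise was 9.07 ± 1.04 (adjusted p = 0.000381), and 8.21 without WT 5. Prg2, the eosinophil major basic protein, rose from 0.287 ± 0.271 to 1.83 ± 0.834 CPM (log2 2.48 ± 0.54, adjusted p = 0.0122, and 3.40 without WT 5). The surface markers of eosinophils did not pass the test: Siglec5, the table's symbol for Siglecf, which alveolar macrophages also express, was at 19.3 ± 2.95 CPM in WT and 19.0 ± 5.24 CPM in Mem (log2 -0.03, adjusted p = 0.894), Ccr3 was at log2 0.93 (adjusted p = 0.115) and Il5ra at -0.26. Epx, the eosinophil peroxidase, had 8 counts over the WT and 4 over the Mem libraries, a ratio of 0.517 with a counting interval of 0.114 to 1.93. Prg3 had 2 and 12 counts (6.2, interval 1.38 to 57.1), and Ear6 had 8 and 16 (2.07, interval 0.835 to 5.58). Reads of the Ear and Rnase2 paralogs may be shared between them. Of the mast cell and basophil genes, 0 of 11 were called in either direction. The neutrophil list had 1 of 11 called higher and a median of -0.74 (-0.84 in batch 1, -0.04 in batch 2 and 0.08 without WT 5). The 1 call was lost without WT 2, 3, 4 or 5 and without Mem 2, 3, 4 or 5. Among its members were S100a8 at -0.96 (adjusted p = 0.215), S100a9 at -0.98 (adjusted p = 0.22) and the receptor Csf3r at -0.77 (adjusted p = 0.122).

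Macrophage genes rose in both the alveolar and the interstitial list. Of 14 alveolar macrophage genes, 8 were called higher and 0 lower, with a median of 0.64 (0.75 in batch 1 and 0.4 in batch 2), and 4 were called without Mem 3 and 5 without WT 3. Ctsk, the protease cathepsin K, rose from 30.8 ± 2.91 to 144 ± 77.7 CPM (log2 2.09 ± 0.30, adjusted p = 0.0012). Itgax, which encodes CD11c and is shared with dendritic cells, rose by 1.08 ± 0.19 (adjusted p = 0.00377), and the lipid-binding Fabp5 by 0.87 ± 0.15 (adjusted p = 0.00227). Pparg (0.26), the transcription factor of alveolar macrophages, and their marker Car4 (0.06) were not called. Mmp12, the macrophage elastase, stood at 4.58, 3.7, 5.04, 4.93 and 6.64 CPM in WT and at 32.1, 174, 104, 583 and 116 CPM in Mem (log2 4.90 ± 0.68, adjusted p = 0.00126). Fbp1, an enzyme of gluconeogenesis, stood at 0.296, 0.342, 0.763, 0.994 and 0.332 CPM in WT and at 0.726, 18.2, 8.48, 94.5 and 40.2 CPM in Mem (log2 4.96 ± 0.91, adjusted p = 0.00595). For both genes Mem 4 was the highest, and for Fbp1 Mem 1 lay within the WT range. The fold of Fbp1 moved with single libraries, to 3.98 without WT 5 and 5.58 without Mem 1.

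Of 16 monocyte and interstitial macrophage genes, 9 were called higher and 2 lower, with a median of 0.58. The complement genes C1qa (log2 1.16 ± 0.17, adjusted p = 0.00102) and C1qc (28.2 ± 3.46 to 67.9 ± 21.7 CPM, 1.16 ± 0.15, adjusted p = 0.000381) rose, as did the lysosomal Cd68 (1.05 ± 0.16, adjusted p = 0.0011), Ms4a7 (1.34 ± 0.21, adjusted p = 0.00138) and the folate receptor Folr2 (0.82 ± 0.11, adjusted p = 0.000491). The chemokine receptor Ccr2, of monocytes that enter tissue, rose by 0.80 ± 0.14 (adjusted p = 0.00294), and Ly6c2 (0.34) was not called. The 2 members called lower were Lyve1 (log2 -0.45, adjusted p = 0.0289), also a gene of lymphatic endothelium, and Ace (-0.37, adjusted p = 0.0343), also a gene of capillary endothelium. Neither was called without WT 5 (adjusted p of 0.115 and 0.148), without Mem 2 (0.061 and 0.0656) or without Mem 3 (0.122 and 0.146). Lyve1 was also lost without WT 1 (0.0596) or WT 2 (0.0522), and Ace without WT 4 (0.0602), Mem 4 (0.0522) or Mem 5 (0.0791).

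Genes of dendritic cells and of antigen presentation to CD4 T cells rose. The dendritic cell list had 9 of 14 called higher, 0 lower and a median of 0.65 (0.83 in batch 1 and 0.51 in batch 2). Flt3, the receptor that drives dendritic cell development, rose by 1.35 ± 0.19 (adjusted p = 0.000752), Batf3, a transcription factor of type 1 dendritic cells, by 1.89 ± 0.27 (adjusted p = 0.000799) and their chemokine receptor Xcr1 by 1.16 ± 0.20 (adjusted p = 0.00279). Cd209a, a lectin of monocyte-derived and type 2 dendritic cells, rose from 7.99 ± 1.77 to 22.7 ± 5.28 CPM (1.43 ± 0.15, adjusted p = 0.00015). Fscn1, an actin-bundling protein of migrating dendritic cells, rose by 1.16 ± 0.19 (adjusted p = 0.00226), while the plasmacytoid marker Siglech was at -0.02 and was not called. Of 14 MHC class II genes, 10 were called higher and 0 lower, with a median of 0.88 (0.95 in batch 1 and 0.73 in batch 2). The class II chain H2-Ab1 rose from 458 ± 69.0 to 982 ± 274 CPM (1.02 ± 0.12, adjusted p = 0.000184), H2-Eb1 by 0.99 ± 0.11 (adjusted p = 0.000182) and the peptide-loading chain H2-DMb1 by 0.84 ± 0.08 (adjusted p = 0.000123). For all 3 the groups did not overlap. H2-Ob, a B cell class II gene, was at 0.04. Of 11 MHC class I genes, 3 were called higher, 1 without WT 5 or without Mem 3, and the median was 0.33. H2-M2, a class I-like gene outside that list, rose from 0.88 ± 0.509 to 17.9 ± 16.2 CPM (3.95 ± 0.55, adjusted p = 0.000955). H2 genes are close paralogs, and reads may be shared between them.

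Most B cell genes were not called, while genes of polymeric antibody and its transport rose. Of 17 B cell and follicle genes, 3 were called higher and 0 lower (1 without WT 5, Mem 2 or Mem 3), and the median was -0.11. The shares over all tested genes were 6.41% higher and 3.05% lower. Ms4a1 (-0.12, adjusted p = 0.801) and Cd79a (-0.04), which mark B cells, were not called. Ccr6, a chemokine receptor shared with T cells, rose by 1.29 ± 0.26 (adjusted p = 0.00772). Of 13 tested plasma cell and germinal centre genes, 5 were called higher and 1 lower, with a median of 0.37, and 3 were called higher without WT 5, Mem 3 or Mem 4. The lower call, Bcl6 (log2 -0.30 ± 0.08, adjusted p = 0.0283), was lost without WT 1, WT 3, WT 5, Mem 1, Mem 2 or Mem 3. Igj, the table's symbol for Jchain, which joins IgA and IgM polymers, stood at 19.9, 42.3, 17.2, 12.8 and 25 CPM in WT and at 127, 367, 413, 279 and 249 CPM in Mem (log2 3.56 ± 0.37, adjusted p = 0.000184). The groups were far apart, with Mem 1 the lowest Mem library. Pigr, the epithelial receptor that carries polymeric immunoglobulin into the airway, rose from 81.8 ± 18.9 to 274 ± 99.1 CPM (1.58 ± 0.16, adjusted p = 0.000146). Derl3, an endoplasmic reticulum protein of secretory cells, rose by 1.09 ± 0.19 (adjusted p = 0.00278). Tnfrsf17 (1.49 ± 0.37, adjusted p = 0.0244) and Mzb1 (0.69 ± 0.20, adjusted p = 0.0434) were called higher as well. Neither was called without WT 5 (0.113 and 0.17) or without Mem 3 (0.0953 and 0.168). The plasma cell genes Xbp1 (0.11) and Sdc1 (0.05), which epithelial cells also express, were not called.

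Chemokine genes beyond the type 2 list rose as well. Of 17 tested chemokine and homing genes, 12 were called higher and 0 lower, with a median of 1.54 (1.88 in batch 1 and 1.03 in batch 2). Ccl20, the ligand of Ccr6, stood at 0.56, 0.0684, 0.297, 0.0736 and 0.791 CPM in WT and at 1.57, 7.3, 10.8, 11 and 9.09 CPM in Mem (log2 4.26 ± 0.53, adjusted p = 0.000393). Its WT values rest on few counts, and the lowest Mem library, Mem 1, was above all of them. The monocyte chemokines Ccl7 (2.58 ± 0.33, adjusted p = 0.000381), Ccl12 (2.30 ± 0.29, adjusted p = 0.000314) and Ccl2 (1.96 ± 0.31, adjusted p = 0.00148) rose. The neutrophil chemokines Cxcl1 (1.78 ± 0.26, adjusted p = 0.00103) and Cxcl5 (2.46 ± 0.43, adjusted p = 0.00301, and 3.16 without WT 5) rose too. Cxcl12 (-0.06) and Icam1 (0.17) were not called. Reads of Ccl7, Ccl8 and Ccl12, which are close paralogs, may be shared between them.

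Innate defence genes of the epithelium and macrophages were also higher. Of 12 tested acute phase, complement and antimicrobial genes, 7 were called higher and 0 lower, with a median of 0.75 (0.64 in batch 1 and 0.82 in batch 2). Lcn2, a lipocalin that binds bacterial siderophores, stood at 120, 98.9, 91.3, 98.9 and 138 CPM in WT and at 297, 493, 475, 942 and 638 CPM in Mem (log2 2.19 ± 0.19, adjusted p = 7.73e-05). Saa3, a serum amyloid A made in the lung, stood at 1.22, 1.03, 0.805, 1.22 and 2.63 CPM in WT and at 4.93, 12, 8.57, 32.7 and 24.1 CPM in Mem (3.19 ± 0.30, adjusted p = 0.00011). Neither overlapped. The complement genes C3 (0.84 ± 0.17, adjusted p = 0.00818) and Cfb (0.94 ± 0.13, adjusted p = 0.000799) and the antimicrobial lectin Reg3g (1.84 ± 0.39, adjusted p = 0.0113) rose, while haptoglobin, Hp (-0.05), was not called. The chitinase list, which shares Chil3 and Chil4 with the IL-4 and IL-13 list, had 4 of 5 tested members called higher: Chil1 rose from 691 ± 84.0 to 2040 ± 541 CPM (1.47 ± 0.13, adjusted p = 7.73e-05), and Chia1, the acidic mammalian chitinase, from 82.9 ± 12.8 to 210 ± 76.6 CPM (1.25 ± 0.24, adjusted p = 0.00572). Of 11 leukotriene and prostaglandin genes, 3 were called higher and 0 lower, among them the thromboxane synthase Tbxas1 (1.30 ± 0.17, adjusted p = 0.000491), and the leukotriene C4 synthase Ltc4s was at 0.5 (adjusted p = 0.0717).

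**Figure D4:**
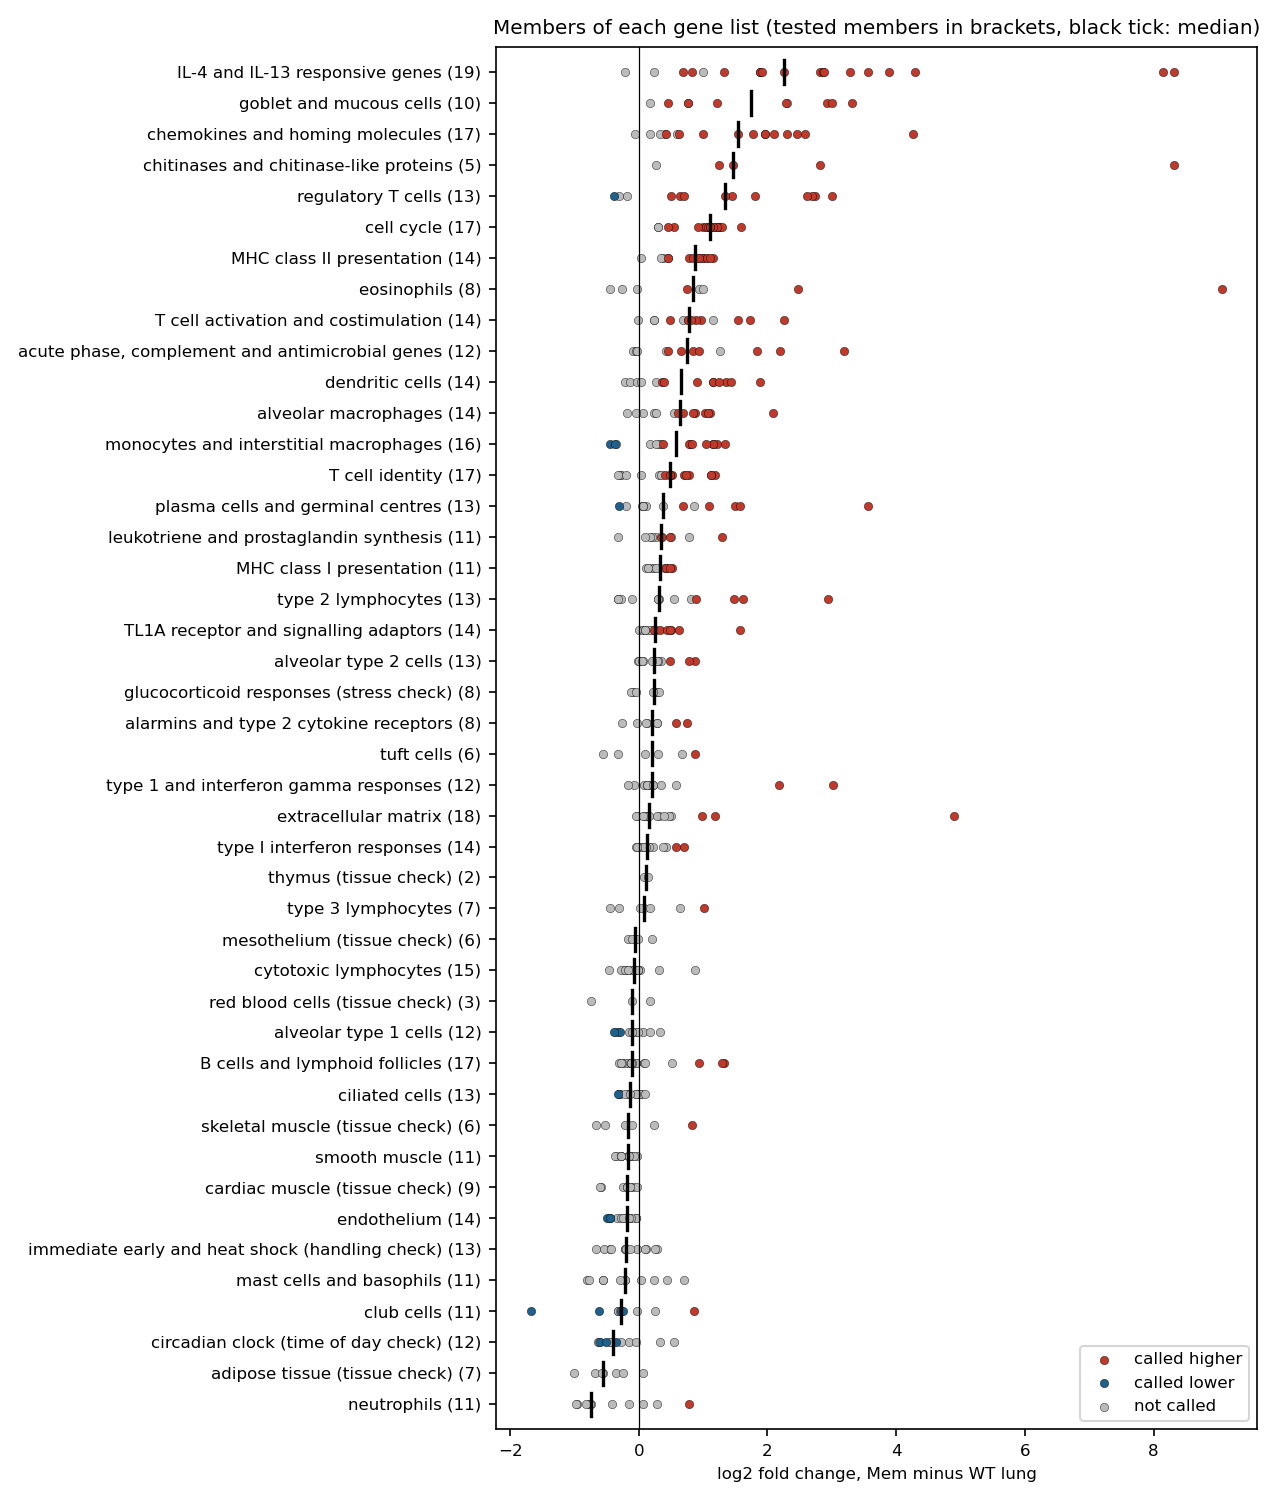
Log2 fold change of Mem over WT for the tested members of 44 gene lists; red points were called higher, blue points lower, grey points were not called, and the black tick is the list's median. The IL-4 and IL-13 list had a median of 2.26, the chemokine list 1.54 and the regulatory T cell list 1.34, against -0.02 over all tested genes. The lists were chosen with earlier results of these data known.

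No tested cytotoxic lymphocyte gene was called, and of the type 1 genes 2 chemokines were, where 6.41% of all tested genes were called higher. Of 15 cytotoxic lymphocyte genes, 0 were called in either direction, with a median of -0.07, the granzymes Gzma at -0.07 and Gzmb at -0.14, and the natural killer receptor Ncr1 at -0.47 (adjusted p = 0.0797). In the type 1 and interferon gamma list 2 of 12 tested genes were called higher, the chemokines Cxcl9 (3.02 ± 0.54, adjusted p = 0.00421) and Cxcl10 (2.18 ± 0.29, adjusted p = 0.000466). Ifng itself (0.18, adjusted p = 0.78) and Gbp2 (0.08) were not called. Type I interferon genes had 2 of 14 called higher, 0 without WT 5 and 1 without WT 2, WT 3 or any 1 of Mem 1 to 4, with a median of 0.13. Of 7 tested type 3 lymphocyte genes, 1 was called higher, the chemokine receptor Cxcr6 (1.02 ± 0.17, adjusted p = 0.00211), which other T cells also carry. Il17a, too rare to be tested, had 0 counts over the WT and 29 over the Mem libraries. With the 0 taken as 3 counts and the 29 as they stand, the ratio of depth-scaled counts was 9.99.

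In the airway epithelium, more club cell genes were called lower than higher. Of 11 club cell genes, 4 were called lower and 1 higher, with a median of -0.28, and 4 lay below WT in all 5 Mem libraries. The shares over all tested genes were 3.05% lower and 6.41% higher. Cyp2f2, a cytochrome P450 of club cells, stood at 2740, 2350, 2760, 3400 and 2470 CPM in WT and at 1940, 1600, 1850, 1390 and 1820 CPM in Mem (log2 -0.62 ± 0.10, adjusted p = 0.00158), without overlap. Bpifa1, an antimicrobial protein of upper airways, stood at 310, 177, 240, 177 and 252 CPM in WT and at 66.8, 138, 43.2, 25.7 and 106 CPM in Mem (-1.68 ± 0.43, adjusted p = 0.0305). Although the groups did not overlap, its fall was not called without WT 3 (adjusted p = 0.0656), WT 5 (0.109), Mem 1 (0.0611) or Mem 3 (0.115). The club cell secretoglobin Scgb1a1 (-0.28, adjusted p = 0.184) was not called. Without WT 3, WT 5, Mem 1 or Mem 3 the list had 1 member called lower, and 2 without WT 1, WT 2 or Mem 4; the member called higher was lost without WT 2, WT 3, Mem 3 or Mem 5. Of 13 ciliated cell genes, 0 were called higher and 1 lower, with a median of -0.14; 0 were called lower without WT 1, 3 or 5 or without any 1 of the Mem libraries, and 2 without WT 4.

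Alveolar type 2 cell genes had 3 of 13 called higher and 0 lower. For this and the next lists, the shares over all tested genes were 6.41% higher and 3.05% lower. Sftpd, the collectin surfactant protein D, rose from 724 ± 92.7 to 1440 ± 462 CPM (0.87 ± 0.15, adjusted p = 0.00234), without overlap. The other collectin, Sftpa1, rose by 0.48 ± 0.11 (adjusted p = 0.0175) and was not called without WT 2 (0.0526) or WT 5 (0.0717). The hydrophobic surfactant proteins Sftpc (0.34, adjusted p = 0.109) and Sftpb (0.04) were not called. Of 12 alveolar type 1 cell genes, 0 were called higher and 2 lower, with a median of -0.11 and Ager at 0.06. The count of lower calls was 0 without WT 2, WT 3, Mem 2 or Mem 3 and 1 without WT 5 or Mem 4. The tuft cell list had 1 of 6 tested genes called higher, the kinase Dclk1 (0.87 ± 0.21, adjusted p = 0.0205), which was lost without WT 5 (0.0706), Mem 2 (0.0505) or Mem 3 (0.0567), and the tuft cell transcription factor Pou2f3 was at 0.09.

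Some matrix and vessel genes were called and no smooth muscle gene, where over all tested genes 6.41% were called higher and 3.05% lower. Of 18 extracellular matrix genes, 3 were called higher (6 with the replicate number as a block and 6 in batch 2 alone) and 0 lower, among the higher them Mmp12 and the protease inhibitor Timp1 (1.18 ± 0.19, adjusted p = 0.00199), with a median of 0.16. The collagens Col1a1 (0.11) and Col3a1 (0.5, adjusted p = 0.319) were not called. Of 11 smooth muscle genes, 0 were called, with 2 called lower without Mem 1. Of 14 endothelial genes, 0 were called higher and 3 lower, with a median of -0.19 (-0.29 in batch 1 and -0.07 in batch 2), and 5 were called lower without Mem 1. Tek, the angiopoietin receptor, fell from 467 ± 28.4 to 333 ± 33.4 CPM (-0.49 ± 0.08, adjusted p = 0.00212) and the endothelin receptor Ednrb from 197 ± 9.66 to 144 ± 30.4 CPM (-0.45 ± 0.10, adjusted p = 0.0104), both without overlap. The pan-endothelial genes Pecam1 (-0.21) and Cldn5 (-0.05) were not called.

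Cell cycle genes rose nearly as a block. Of 17 members, 15 were called higher and 0 lower, with a median of 1.1 (1.37 in batch 1 and 0.71 in batch 2), and without any 1 library 14 to 17 were called higher. Cdk1, the kinase that starts mitosis, stood at 3.82, 4.96, 2.37, 1.77 and 3.45 CPM in WT and at 6.62, 11.1, 8.72, 17.2 and 9.78 CPM in Mem (log2 1.59 ± 0.24, adjusted p = 0.0011). Mem 1 was the lowest and Mem 4 the highest of the Mem libraries, and the groups did not overlap. Aurkb (1.22 ± 0.18, adjusted p = 0.0011), Plk1 (1.16 ± 0.17, adjusted p = 0.000861) and Top2a (1.19 ± 0.19, adjusted p = 0.00195), which act in mitosis, rose, as did Mki67 (1.0 ± 0.22, adjusted p = 0.0128). The replication genes Mcm2 (0.3, adjusted p = 0.0581) and Pcna (0.3, adjusted p = 0.0579) were the 2 not called.

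The largest falls were of a different kind from the rises. The 12 largest falls named by rule ranged from -1.68 to -0.79 on the log2 scale, against 3.32 to 9.07 for the 12 largest rises. Asgr1, Coro6, Cyp2a5, Sytl5, Cst8, Plag1 and Pde3a, all among these falls, lost their call without WT 5 (adjusted p of 0.0561 to 0.146). They also lost it without Mem 3 (0.0675 to 0.112). Sult1d1, a sulfotransferase, stood at 27.4, 19.7, 35.8, 20.6 and 26.4 CPM in WT and at 8.65, 11.2, 10.6, 5.61 and 11.6 CPM in Mem (-1.40 ± 0.23, adjusted p = 0.00234), without overlap. Pon1, a paraoxonase that hydrolyses organophosphates, stood at 63.9, 40.1, 85.3, 88.2 and 56.9 CPM in WT and at 41.2, 21.9, 43.5, 20.1 and 40.6 CPM in Mem (-0.86 ± 0.14, adjusted p = 0.00232). Within each sex and batch its Mem value was below its WT value, although the groups overlapped. Itih2, an inter-alpha-trypsin inhibitor heavy chain, stood at 4.48, 3.46, 5.04, 6.92 and 4.42 CPM in WT and at 2.58, 2.49, 2.75, 2.4 and 2.79 CPM in Mem (-0.82 ± 0.15, adjusted p = 0.00433), without overlap. Slc38a4, an amino acid transporter, stood at 32.5, 36.9, 20.5, 18.9 and 33.3 CPM in WT and at 17.1, 20.8, 11.9, 18.1 and 18.8 CPM in Mem (-0.80 ± 0.14, adjusted p = 0.00278), with WT 4 below Mem 2. The genes that fell were long in the annotation. With the exons of all transcripts of a gene merged, the median exon total was 5480 bases among genes called lower. It was 2387 among genes called higher and 3197 over all tested genes. The median gene span was 61.5, 15.8 and 23.2 kb in the same order. Lengths were found for 95.1, 96.1 and 95.2% of these sets. The part of length in the calls was not tested.

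Lists for handling and time of day were read as checks. Of 13 immediate early and heat shock genes, 0 were called, with summed levels of 1110 to 2030 CPM in WT and 1160 to 1550 CPM in Mem. Of 8 glucocorticoid-responsive genes, 0 were called. Of 12 circadian clock genes, 3 were called lower and 0 higher, where 3.05% of all tested genes were called lower, with a median of -0.4 against -0.02 over all tested genes and summed levels of 1130 to 2050 CPM in WT and 791 to 1590 CPM in Mem, and 1 was called lower without WT 2 or Mem 3. Ciart fell by 0.51 ± 0.11 on the log2 scale (adjusted p = 0.0129). The hour at which lungs were taken is not given in the sources used here, and its part in the results was not tested.

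No gene passed a test of a difference between the sexes. In a fit with a genotype by sex term 0 of 15885 genes were called (0.0%), 250 had an unadjusted p under 0.05, and DESeq2 called 1. With 2 male and 3 female Mem libraries, the female means were the higher for several type 2 genes: Retnla was at 1960 CPM in female and 390 CPM in male Mem lungs, against 57.2 and 41.8 CPM in WT (interaction, male minus female, -1.81 ± 0.46, unadjusted p = 0.00192, adjusted p = 1.0). Muc5ac was at 27.0 and 6.22 CPM, against 2.27 and 1.55 CPM in WT (-1.58 ± 0.41, unadjusted p = 0.00215, adjusted p = 1.0). Foxp3 was at 13.1 CPM in female and 7.35 CPM in male Mem lungs, against 1.42 and 1.05 CPM in WT (-0.37 ± 0.54, unadjusted p = 0.502). A genotype by batch term, added after the data were seen, likewise gave 0 calls (0.0%), with 828 genes at an unadjusted p under 0.05 and 2 called by DESeq2.

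Set against the other transgenic lungs, Mem lungs had lower Tnfsf15 and higher levels of part of the genes described above. Between Mem and Mem+Sol 355 of 15885 genes were called (2.23%), 218 higher (1.37%) and 137 lower (0.862%) in Mem. The count of 355 rests on single libraries: it was 30 without Mem 2, 138 without Mem 3, 149 without Mem 4, and 217, 648, 36 and 144 without Mem+Sol 1, 2, 3 and 4. With all libraries, 165 genes were called higher in Mem than in both WT and Mem+Sol. Tnfsf15 stood at 79.4, 97.9, 61.5 and 70.5 CPM in Mem+Sol 1 to 4, so that all were above all Mem libraries (Mem minus Mem+Sol -1.79 ± 0.18, adjusted p = 0.000533). Its receptor gene Tnfrsf25 stood at 5.03, 5.43, 4.64 and 5.27 CPM there, below all Mem libraries (0.66 ± 0.11, adjusted p = 0.0151). Retnla stood at 248, 436, 292 and 263 CPM in Mem+Sol (1.85 ± 0.43, adjusted p = 0.0452), and the ranges overlapped through Mem 1 at 222 CPM. Chia1 (1.74 ± 0.25, adjusted p = 0.00935), Arg1 (2.91 ± 0.46, adjusted p = 0.0151), Ccr4 (0.98 ± 0.20, adjusted p = 0.0263) and Il33 (0.78 ± 0.15, adjusted p = 0.0223) were also higher in Mem. Clca3, at 73.3, 135, 214 and 170 CPM in Mem+Sol, differed by 2.39 ± 0.58 and did not pass (adjusted p = 0.0533), and Igj, at 174, 311, 118 and 144 CPM, differed by 0.72 ± 0.36 (adjusted p = 0.332). Of the 96 named rises over WT, 35 were also called above Mem+Sol, and of the 23 named falls 3 were also called below it. Both comparisons use the same Mem libraries, so they are not independent.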

How the data were processed

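The analysis started from the deposited lung table of raw read counts per gene symbol. Per the submitters' processing notes, CASAVA and TopHat2 were used with the genome build mm10, without versions; how the authors turned alignments into counts (tool, annotation, filters, strand) is not given in the sources used here. Per the labels' protocols, tissue went into RNAlater, mRNA was captured by its poly-A tail and libraries were amplified by PCR without mention of molecular identifiers, so intervals and floors cover counting error only.

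Counts of 14 lung libraries were filtered (filterByExpr), normalised by trimmed mean of M-values (TMM) and tested by the robust quasi-likelihood fit of edgeR 4.0.16 (R 4.3.3), with genotype, sex and batch as terms, 9 residual degrees of freedom and Benjamini-Hochberg adjustment over 15885 genes; the biological coefficient of variation was 0.13. The 4 Mem+Sol libraries thus share in the estimate of spread. CPM use TMM library sizes, and SE is the log2 fold change over the square root of F. A gene was called at an adjusted p under 0.05. The test was tested on simulated data first. No 2 libraries of a group were as alike as a repeat of 1 library would be: chi-square per degree of freedom was 13.9 to 102.

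The members and the 44 gene lists were chosen with earlier results of these data known. Of 552 list symbols 549 were in the table, 4 by an older symbol (Clca3, Siglec5, Igj, Faim3), and 506 were tested. Lists overlap. Named genes were Tnfsf15, Tnfrsf25, the 12 largest rises and falls with a mean log2 CPM of at least 1 (immunoglobulin, T cell receptor and sex-linked genes and unnamed models passed over), and up to 4 called members per list by adjusted p; other members named describe a list. The results of 4 list members are not reported here. Ratios of low counts have exact 95% intervals. Alternatives were DESeq2 1.42.0, RLE normalization, no filter, no sex term, no batch term, only Mem and WT libraries, a replicate block, each batch alone and each library left out. Positions and promoters are from GENCODE and RefSeq on GRCm38.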

Additional observations from a re-analysis of the deposited data

Results flagged for a closer look

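In 318 groups of 5 libraries tested (the WT or the Mem libraries of 1 gene), 17 had 1 library set apart from the other 4 by Dixon's test at the 95% level, and chance sets apart about 1 in 20 groups. In the Mem group Mem 4 was set apart high for Chil4 (321 CPM, the others 11.7 to 64.0), Mmp12 (583 CPM, the others 32.1 to 174), Ms4a7 (14.9 CPM, the others 5.78 to 8.16) and the elastic fibre gene Eln (1060 CPM, the others 195 to 436). Mem 1 was set apart low for Cd5 (8.68 CPM, the others 14.7 to 15.9), and Mem 3 high for the lipid desaturase Scd1 (5570 CPM, the others 2600 to 3130).

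In the WT group WT 5 was set apart high for Cxcl5 (2.2 CPM, the others 0.0684 to 0.515), Ptgs1 (107 CPM, 78.8 to 85.3), Retnla (69.3 CPM, 37.0 to 46.3), Saa3 (2.63 CPM, 0.805 to 1.22) and Tnni2 (1.66 CPM, 0.89 to 1.03). WT 2 was set apart high for Rnase2a (0.103 CPM, 0.0255 to 0.0424, from 3 counts against 1) and Rrm2 (8.14 CPM, 6.36 to 6.72). WT 3 was set apart low for Tigit (0.636 CPM, 0.889 to 0.957) and Tnfrsf4 (1.14 CPM, 1.81 to 2.02). WT 4 was set apart high for Agr2 (2.72 CPM, 0.424 to 0.958) and WT 1 for Cyp2a5 (61.0 CPM, 20.3 to 31.8).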

How the results depend on the processing

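DESeq2 called 964 genes lower (main 485) and 979 between Mem and Mem+Sol (main 355), and 1 gene in the sex and 2 in the batch interaction (main 0 and 0). Its 2219 calls against WT were 56.6% higher, and those with RLE 64.6%, against 67.7% with TMM; RLE moved the median of all genes by -0.004. Without a batch term 524 genes were called against WT, 486 higher and 38 lower, and 34 against Mem+Sol; 92.7% of the 524 were higher. Batch 2 alone gave 266, 205 higher and 61 lower, from 4 libraries. The causes of the other moves were not tested. Leaving out 1 library at a time gave 627 to 2006 calls against WT, 523 to 1177 higher and 94 to 829 lower, and 30 to 648 against Mem+Sol. The log2 fold change of Siglec5, not called at -0.03, turned to 0.11 in batch 2 alone, 0.03 without WT 5 and 0.05 without Mem 5, and was -0.16 without Mem 1.

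Replicate numbers were not taken to pair the samples, since not every pair correlated above 0.1: the deviations of same-numbered Mem and WT libraries correlated at 0.486, 0.616, 0.221, 0.0589 and 0.456, and at -0.206, -0.248, -0.317, 0.0238 and 0.0393 after sex and batch were fitted, and Mem 3 and Mem 4 correlated best with another number. With the number as a block over the 10 libraries, 1106 genes were called, 845 higher and 261 lower, 990 of them shared with the main result.

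With only the Mem and WT libraries 1565 genes were called; list counts moved to 5 higher for MHC class I and for alveolar type 2 genes, 2 higher for tuft cells (median 0.47), 1 lower for type 2 and for cytotoxic lymphocytes and 2 lower for smooth muscle. Of the 119 named genes, 86 kept their call without each single library and 33 lost it without at least 1. The number of named calls lost was 0 with DESeq2 and with RLE, 7 with no filter, 4 with no sex term, 36 with no batch term, 5 with only Mem and WT, 10 with the block, 22 in batch 1 alone and 75 of 118 in batch 2 alone, and 0 changed sign. Genes under about 1 CPM, such as Il13, Il4, Il10 and Il17a, are limited by depth, and a fold against WT libraries with 1 to 3 counts, as for Rnase2a, depends on the prior count.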

Other observations

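Several genes outside the lists and the naming rule were also higher in the Mem lung, and were chosen after their values were seen. Awat1, an acyltransferase of wax ester synthesis, stood at 0.0, 0.0, 0.0424, 0.0 and 0.0255 CPM in WT and at 0.522, 3.31, 5.31, 6.23 and 1.2 CPM in Mem (log2 7.63 ± 1.38, adjusted p = 0.00436). Its mean fell short of the level the naming rule asked for, and its WT libraries held almost no reads, so the fold depends on the prior count. Dcstamp, which encodes a membrane protein needed for the fusion of osteoclasts and of macrophages into giant cells, rose from 0.261 ± 0.125 to 3.61 ± 3.61 CPM (SD, n = 5 each; log2 3.31 ± 0.60, adjusted p = 0.00416), with Mem 4 at 9.79 CPM and Mem 1 at 0.522 CPM, above all WT libraries. Its relative Ocstamp, at 1.93 ± 0.72, was not called (adjusted p = 0.107). Ubd, a ubiquitin-like modifier, rose from 0.0321 ± 0.0194 to 0.81 ± 0.294 CPM (4.39 ± 0.49, adjusted p = 0.000182).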
